A study of Arabidopsis thaliana with 24 samples.

Results

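BGLU44 (AT3G18080), a beta-glucosidase gene reported as a target of the transcription factors TMO5 and LHW, was followed through a dexamethasone time course in root meristems of Arabidopsis thaliana. It was chosen by name, and it is 1 gene of 16552 that had an array value under a single gene name. Its values come from 1 probe set on Affymetrix whole-transcript arrays. The seedlings were 4 days old, of the Col-0 accession, and carried the crossed constructs pRPS5A::TMO5:GR and pRPS5A::LHW:GR. Each construct fuses a transcription factor with the steroid-binding part of the glucocorticoid receptor, under the promoter of RPS5A. That promoter works in dividing cells of many tissues. All groups shared this genotype, and they differed in the time spent on medium with the steroid: 0, 0.5, 1, 2, 3, 4, 5 or 6 h, with 3 arrays each. Plants without the constructs, and plants moved to steroid-free medium, were not analysed here. Transfer, steroid and elapsed time cannot be told apart in any comparison. The labels name no separate cultures or pools behind the repeats of a time, and the p-values below rest on the spread between arrays, which may be technical.

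TMO5 and LHW are basic helix-loop-helix proteins that work as a pair in young vascular cells of the root. The pair switches on LOG3 and LOG4, which make active cytokinin, and cytokinin in turn promotes the divisions that widen the vascular cylinder. Dexamethasone lets a receptor fusion protein enter the nucleus. BGLU44 belongs to glycoside hydrolase family 1, whose plant members remove glucose from conjugates such as hormone glucosides, lignin precursors and defence compounds. Later work on Arabidopsis roots has placed BGLU44 in the release of cytokinin from glucosides downstream of TMO5 and LHW.

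BGLU44 was low on every array up to 1 h and higher on every array from 2 h on. The RMA values, which are on a log2 scale, were 2.79, 2.06 and 3.16 on the 3 arrays of 0 h and 2.60, 2.72 and 2.45 on those of 0.5 h. The 1 h arrays gave 3.49, 2.20 and 3.27. All 9 of these values lay below the median of their own array, and the 3 times overlapped each other. Array medians ran from 3.86 to 4.01. The next arrays gave 5.16, 4.45 and 4.85 (2 h) and 5.16, 4.68 and 4.52 (3 h). The lowest of them exceeded the highest value of the first 3 times. The 4 h arrays read 4.75, 5.15 and 4.86. Those of 5 h read 5.26, 5.00 and 5.19, and the last 3, of 6 h, read 5.08, 5.59 and 5.31. All 15 values from 2 to 6 h were above their array medians. The files carry no detection calls, and whether the early values exceeded background hybridisation was not tested.

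**Figure D1:**
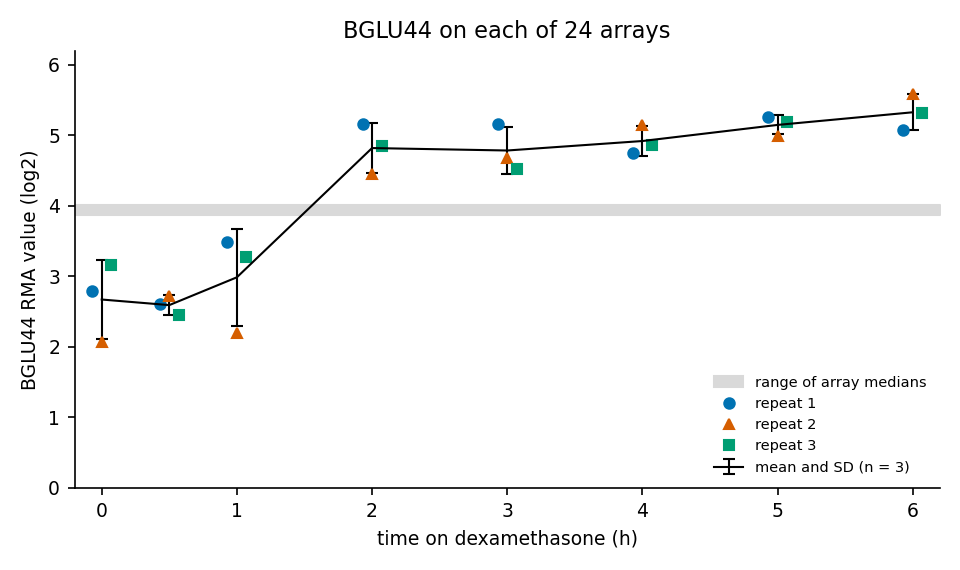
BGLU44 RMA value (log2) against time on dexamethasone (h). Points are the 24 arrays by repeat, the line and bars are the mean and SD of 3 arrays, and the grey band is the range of array medians; the highest value up to 1 h is 3.49 and the lowest from 2 h on is 4.45.

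The early and late arrays were separated by a gap of 0.96, from 3.49 at 1 h to 4.45 at 2 h. Every array of 2 to 6 h was above every array of 0 to 1 h for 27 of 16552 genes (0.163%), and the gap of BGLU44 was the largest of the 27. The next was 0.33, for AT4G29310. This measure was chosen after the values had been seen. BGLU44 also had the largest gap with array medians set equal (0.96), after a second quantile normalization (0.95), among all probe sets by ID (0.96), and without repeat 3 of 0 to 2 h (0.96). The last setting could not lower its gap, which lies between array 1 of 1 h and array 2 of 2 h. Genes with such a gap numbered 20 with medians set equal, 26 after the second normalization and 112 without repeat 3. Among all probe sets, 59 had one.

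Mean values rose from 2.67 ± 0.56 (SD, n = 3) at 0 h to 4.82 ± 0.36 at 2 h and 5.33 ± 0.26 at 6 h. In one linear model of all 24 arrays, the change from 0 h was 2.15 ± 0.28 (SE) in log2 at 2 h, which is 4.43-fold (limma, Benjamini-Hochberg adjusted p = 2.82e-04). It was 2.66 at 6 h, which is 6.30-fold, with a 95% interval of 2.06 to 3.25 in log2 (adjusted p = 1.55e-05). Among the 16552 genes this was the largest rise at 6 h. BGLU44 was called at each time from 2 h to 6 h. Of all genes, 0.501%, 2.33%, 1.78%, 2.09% and 2.5% were called as higher at these times, and 0.973%, 3.5%, 2.8%, 3.33% and 4.14% in either direction. Without single arrays the number of genes called ran from 103 to 275 at 2 h (161 with all arrays), 195 to 1174 at 3 h (579), 190 to 996 at 4 h (464), 220 to 1023 at 5 h (551) and 317 to 1129 at 6 h (686). The moderated F statistic of BGLU44 over the course was 34.6 (limma adjusted p = 1.46e-06), the seventh highest, and 4.5% of genes passed this test. With 3 arrays against 3, an exact two-sided permutation test cannot give a p below 0.1, and it gave 0.1 for 6 h against 0 h.

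At 0.5 and 1 h no change was detected, and 0.224% and 0.471% of all genes were called (0.145% and 0.326% as higher). The change from 0 h was -0.08 at 0.5 h, with a 95% interval of -0.67 to 0.51 (limma adjusted p = 0.982). At 1 h it was 0.32, with an interval of -0.28 to 0.91 (limma adjusted p = 0.839). These intervals leave room for a change of up to 0.67 down or 0.91 up. The direction at 0.5 h turned positive without array 3 of 0 h (0.16) and without repeat 3 of 0 to 2 h (0.24). The change at 1 h ran from 0.01, leaving out array 2 of 0 h, to 0.71, leaving out array 2 of 1 h. It was called in neither fit.

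The step from 1 to 2 h held most of the rise. BGLU44 gained 1.83 ± 0.28 (SE) in log2 within that hour, a 3.56-fold change (limma adjusted p = 0.0209), and no other gene rose more between these times. Only 3 genes (0.0181%) were called for this step. The others were AT1G23160, which rose by 1.70 (adjusted p = 0.00273), and AT4G39795, which fell by 0.63 (adjusted p = 0.0343). By the means, BGLU44 had covered 11.9% of its 0 to 6 h rise at 1 h and 80.9% at 2 h. The call of this step depended on single arrays. Leaving out array 2 of 1 h ended it (change 1.44, adjusted p = 0.164), as did leaving out array 1 of 2 h (1.66, adjusted p = 0.180) or array 3 of 2 h (1.82, adjusted p = 0.115). It was also lost without repeat 3 of 0 to 2 h (1.96, adjusted p = 0.120) or of 0 to 3 h (1.96, adjusted p = 0.160), while AT4G39795 kept its call under 12 of 34 alternatives, with adjusted p between 0.0138 and 0.209.

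**Figure D2:**
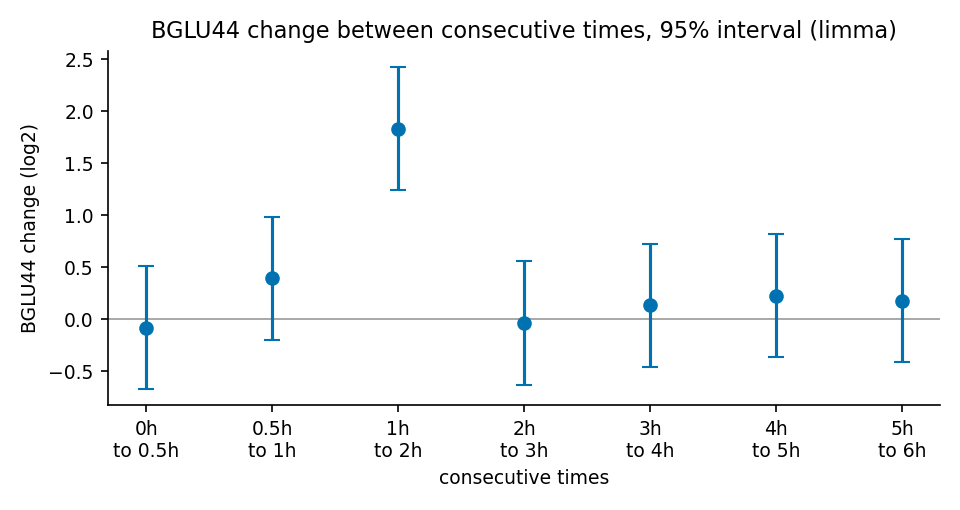
BGLU44 change in log2 between consecutive times, with 95% intervals from limma. The step from 1 to 2 h is 1.83 with an interval of 1.24 to 2.43, and the intervals of the other 6 steps include 0.

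After 2 h the level stayed high, and no later step was called. The 3 h mean was 4.79 ± 0.33 (SD, n = 3), the 4 h mean 4.92 ± 0.21 and the 5 h mean 5.15 ± 0.13. Successive differences from 2 h on were -0.03, 0.13, 0.23 and 0.18 (limma adjusted p of at least 0.985), and 0.0181%, 0.00604%, 0% and 0% of genes were called for these steps. The slope over 3 to 6 h was 0.19 per hour with an interval of -0.00 to 0.37 (limma unadjusted p = 0.0521, adjusted p = 0.829), and 0.0604% of genes were called for a slope. Between 3 and 6 h the difference was 0.54, with an interval of -0.05 to 1.13 (limma adjusted p = 0.928, with 0.0423% of genes called). A further rise of up to 1.13 within this span is inside that interval. In order of their means the times ran 0.5, 0, 1, 3, 2, 4, 5 and 6 h. Of the 7 neighbouring pairs in that order, 1 and 3 h alone differed (1.80, limma adjusted p = 0.00272, with 0.894% of genes called).

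Transferred seedlings were also compared with each other, leaving out the 0 h arrays. The 9 arrays of 4 to 6 h had a lowest value of 4.75, a median of 5.15 and a highest value of 5.59. The 9 arrays of 0.5 to 2 h had a lowest value of 2.20, a median of 3.27 and a highest value of 5.16. The groups overlapped, because the 2 h arrays already reached the later range. The difference of the means was 1.67 (limma adjusted p = 2.03e-06, exact two-sided permutation p = 6.58e-04), and 7% of genes were called in this comparison, 4.39% as higher.

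BGLU44 varied more between repeats than most genes. Its residual SD was 0.38, higher than that of 96.8% of genes, whose median was 0.19. The SD was 0.56 at 0 h and 0.69 at 1 h, and from 0.13 to 0.36 at the other times. Repeat 3 of 0 to 3 h lay above repeats 1 and 2 of its time on the first principal component of all genes, at -5.16 against -27.2 and -21.5 for 0 h and at 17.6 against 8.17 and 7.69 for 3 h. On these arrays BGLU44 differed from the mean of the other repeats by 0.73 (0 h), -0.22 (0.5 h), 0.42 (1 h), 0.04 (2 h) and -0.40 (3 h). The rise was as large without these 5 arrays, a setting added after the values had been seen, with changes from 0 h of 2.38 at 2 h, 2.49 at 3 h and 2.90 at 6 h.

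Markers were used to check the labelled tissue, and few had a value. Of 7 genes of the root stem cell niche 1 was measured, BBM, with means of 5.20 at 0 h and 5.19 at 6 h. None of the xylem and endodermis markers had a value under a single gene name. The phloem genes OPS and CLE45 had changes of 0.25 and 0.04 at 6 h, neither called. Of 4 shoot markers RCA, which encodes Rubisco activase, was measured, and it rose at 6 h by 0.78 (limma adjusted p = 0.00257), from 4.49 to 4.65 on the 0 h arrays to 5.19 to 5.45. The root hair expansin genes EXPA7 and EXPA18, 2 of 6 markers of epidermis and root hairs, had changes of 0.61 and 0.81 at 6 h, not called (adjusted p = 0.108 and 0.0532), but both were called at 3 h, with 0.77 and 0.96 (limma adjusted p = 0.0415 and 0.0260). Leaving out array 3 of 3 h ended both calls (0.59, adjusted p = 0.220, and 0.90, adjusted p = 0.121), as did leaving out array 1 or 2 of 0 h or array 1 of 3 h (adjusted p up to 0.205 and 0.130), and EXPA7 and EXPA18 kept theirs in 13 and 19 of 24 fits without 1 array. RCA was also called at 3, 4 and 5 h, but leaving out array 3 of 3 h ended its call at 3 h (0.53, adjusted p = 0.0724). Its calls at 4 and 5 h were each kept in 27 of 34 alternatives (adjusted p up to 0.136 and 0.142). Their part in the result for BGLU44 was not tested. At 2 h the changes of RCA, EXPA7 and EXPA18 were 0.24, 0.36 and 0.16, none of them called. Whether the make-up of the tissue had changed by 2 h was not tested. In RNA of whole meristems, more expressing cells and more RNA per cell cannot be told apart.

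Of 47 genes carrying a BGLU number in the RefSeq table, 24 had a value, and none of the 23 others was called in limma at 6 h, where 7 had an unadjusted p under 0.05. With 4.14% of all genes called and 17.3% at an unadjusted p under 0.05, an absence of calls among 23 genes is near the background and is no result about the family. The median change of these 23 was -0.11, against -0.03 for all genes, and they ran from -0.79 for BGLU32 to 0.55 for BGLU41. BGLU45 and BGLU46, which act on glucosides of lignin precursors, had changes of 0.16 and 0.42. Across the 7 times, BGLU15 at 3 h was the 1 other call, a rise of 0.60 (limma adjusted p = 0.0399, between 0.00176 and 0.215 over the alternatives). Leaving out any 1 of 4 arrays ended this call, namely arrays 1 and 2 of 0 h and arrays 2 and 3 of 3 h. At 3 h 3.5% of all genes were called, 2.33% as higher. A single call among 23 genes is near that background and is no result about the family.

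**Figure D3:**
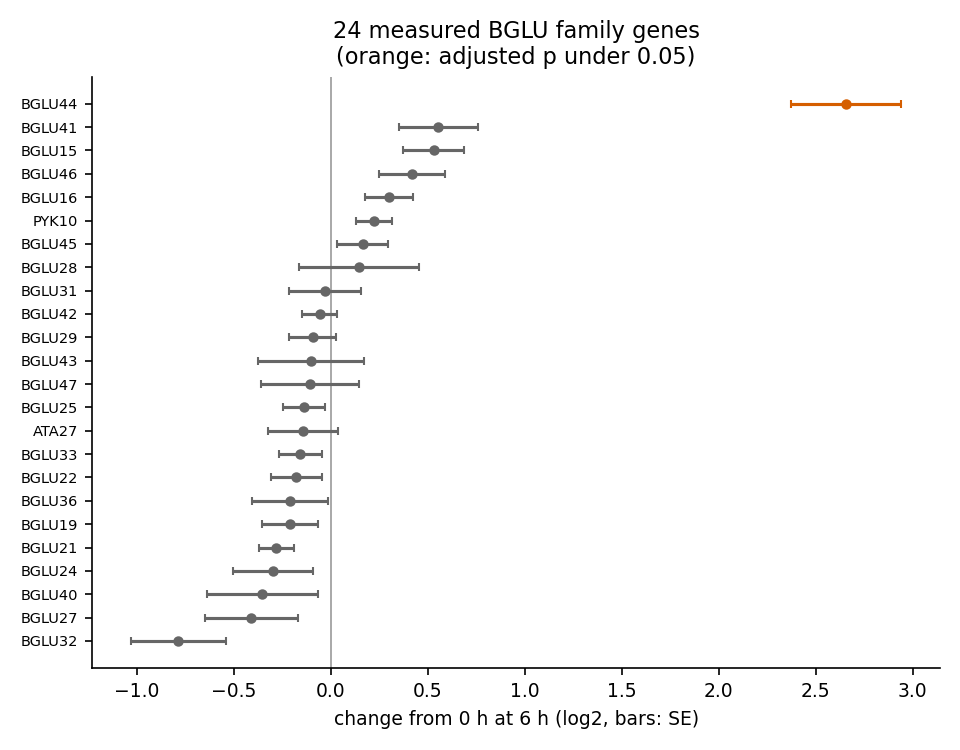
Change from 0 h at 6 h (log2, bars are SE from limma) for the 24 measured BGLU family genes. BGLU44 is at 2.66 and the other 23 lie between -0.79 and 0.55.

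BGLU43 (AT3G18070) is the nearest measured gene on one side of BGLU44, 2 places away in the order of the TAIR10.1 annotation, and belongs to the same family. The 0 h arrays read 3.03, 2.19 and 2.02 for BGLU43, those of 2 h read 2.13, 2.68 and 1.96, and those of 6 h read 1.86, 2.44 and 2.65. They overlapped, and BGLU43 was called at no time. Its changes ran from -0.42 at 3 h (limma adjusted p = 0.453) to 0.59 at 1 h (adjusted p = 0.543). Whether any probe binds both transcripts was not tested. On the other side lies NRPD2B (AT3G18090), a gene for a subunit of plant-specific RNA polymerases, with changes of 0.68 (0.5 h), 0.63 (1 h), 0.76 (5 h) and -0.03 (6 h). It was called against 0 h at no time (limma adjusted p of at least 0.117) but passed the F test over the course (limma adjusted p = 0.0416). The other 4 nearest measured genes, AT3G18060, AT3G18050, AT3G18120 and AT3G18150, had changes between -0.25 and 0.16 at 6 h, and none of them was called against 0 h at any time.

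In late against early times 3 family members were called as lower, against 2.6% of all genes. BGLU21 fell by 0.28 (limma adjusted p = 0.00155), a call kept in all 34 alternatives recorded for it. BGLU28 was lower by 0.73 (limma adjusted p = 0.0148), a call lost without repeat 3 of 0 to 2 h (-0.58, adjusted p = 0.0683) or of 0 to 3 h (-0.58, adjusted p = 0.0721). Its changes from 0 h were 1.00, 0.84 and 0.91 at 0.5, 1 and 2 h, and -0.06, 0.49 and 0.15 at 4, 5 and 6 h. None of these was called. Its means of 1.79 at 0 h and 1.94 at 6 h were below every array median. BGLU25 was lower by 0.21 (limma adjusted p = 0.0421), a call lost in 16 of 24 fits that left out 1 array (adjusted p up to 0.0951).

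Few genes of the cytokinin pathway had a value under a single gene name. Of 82 listed genes 10 had a value, and the lists for synthesis and activation, breakdown, receptors with phosphotransfer proteins, and response factors had none. At 6 h 1 of the 10 rose and none fell, with 6 at an unadjusted p under 0.05, against 4.14% of all genes called and 17.3% at an unadjusted p under 0.05. Their median change was -0.00 against -0.03 for all genes. The gene that rose was ARR15 (AT1G74890), a type-A response regulator that cytokinin induces and that dampens the cytokinin response. ARR15 read 2.15, 1.99 and 1.84 on the 0 h arrays, 2.90, 2.60 and 3.36 on those of 2 h, and 3.91, 3.27 and 3.83 on those of 6 h. Its arrays of 2 h did not overlap those of 0 h, yet the change of 0.96 was not called (limma adjusted p = 0.0800), while that of 1.68 at 6 h was (adjusted p = 5.25e-04). On every array ARR15 read below the array median, its highest value being 3.91 against a median of 4.00. Whether its values exceeded background hybridisation was not tested. ARR16, another type-A regulator, had a change of 0.28 at 6 h and was not called.

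Of 5 listed enzymes that attach glucose to cytokinin, the reverse of the reaction assigned to BGLU44, 3 were measured and none of these was called at any time. Of all genes, from 0.224% at 0.5 h to 4.14% at 6 h were called. An absence of calls among 3 genes is near that background and is no result about glucosylation. At 6 h UGT76C1 and UGT76C2, which form N-glucosides, had changes of -0.13 and 0.44, and UGT73C1, which forms O-glucosides, had a change of -0.41. The means of UGT73C1, 1.75 at 0 h and 1.34 at 6 h, were below every array median (3.86 to 4.01). UGT76C2 came nearest to a call at 3 h, with 0.62 (limma adjusted p = 0.0972). The purine transporter gene AZG1 rose by 0.59 at 4 h (limma adjusted p = 0.0162), a call that ended on leaving out array 1 of 0 h (0.46, adjusted p = 0.110), array 1 of 4 h (0.58, adjusted p = 0.0576) or array 2 of 4 h (0.50, adjusted p = 0.0882). The type-B regulators ARR18, ARR19 and ARR21, which activate cytokinin targets, were not called, with changes of -0.39, -0.25 and -0.66 at 6 h. Their 0 h means of 1.75, 1.42 and 1.91 were also below every array median. Whether these low readings exceeded background hybridisation was not tested, and an absence of calls among so few genes is near the background.

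Of 13 genes of the complex and its antagonists 5 were measured, and SACL1 and SACL2, genes of SAC51-like bHLH proteins, rose at 6 h by 0.43 and 0.68 (limma adjusted p = 0.0182 and 8.94e-04). Both were also called at 0.5 h, with 0.49 for SACL1 and 0.78 for SACL2 (limma adjusted p = 0.0451 and 0.00111). BGLU44 had a change of -0.08 then. Neither SACL gene was called at 1 or 2 h, with 0.30 for each at 2 h (limma adjusted p = 0.205 and 0.263). From 3 to 5 h SACL2 was called at each time and SACL1 at none (limma adjusted p of at least 0.0510). Of all genes, 0.145% were called as higher at 0.5 h and 2.5% at 6 h. At 0.5 h SACL2 kept its call in the 34 alternatives recorded for it and SACL1 in 7. These leave out the fit of the 0 and 0.5 h arrays alone, in which no gene was called. At 6 h the call of SACL1 ended on leaving out array 1 of 0 h (0.31, adjusted p = 0.128) or any array of 6 h (adjusted p up to 0.0646). LHW had a change of -0.08 at 6 h, and its reading may hold RNA of the introduced copy. The TMO5-like genes T5L2 and T5L3 had changes of 0.13 and -0.02 at 6 h. Neither was called against 0 h at any time, and T5L2 passed the F test (limma adjusted p = 0.0489). Of 5 published targets, BGLU44 and DOF2.1 (AT2G28510), a DOF transcription factor gene, had values. DOF2.1 had 62.0% of its 0 to 6 h change at 1 h, where BGLU44 had 11.9%. The DOF2.1 values were 6.01, 6.48 and 6.47 on the 0 h arrays and 6.82, 7.05 and 7.14 on those of 1 h, so that these times did not overlap, while those of BGLU44 did. The difference in timing between these genes was not tested, and they share all arrays. The call of DOF2.1 at 1 h (0.68, limma adjusted p = 0.0430) was kept under 16 of 34 alternatives, with adjusted p between 0.00874 and 0.234.

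**Figure D4:**
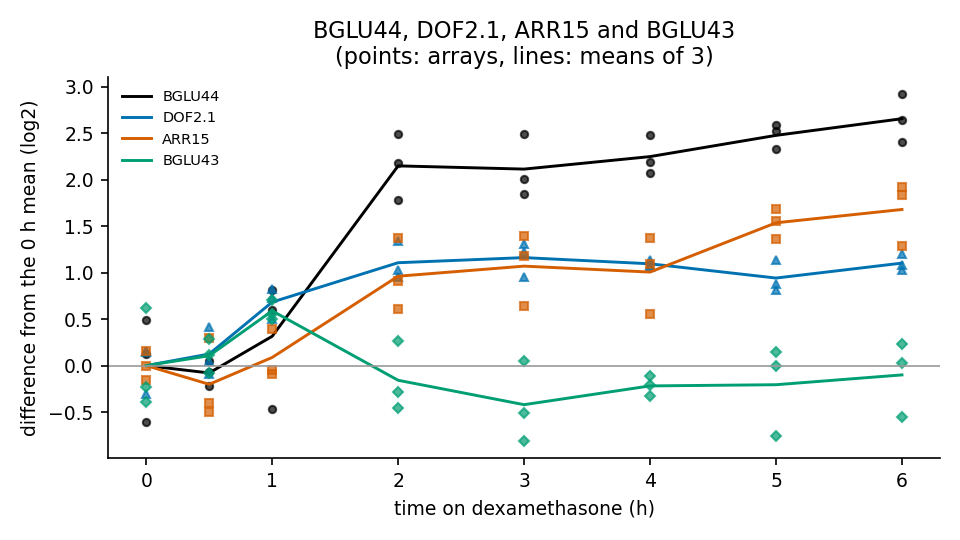
Difference from the 0 h mean (log2) over time for BGLU44, DOF2.1, ARR15 and BGLU43; points are arrays and lines are means of 3. At 6 h BGLU44 is at 2.66, ARR15 at 1.68 and BGLU43 at -0.10.

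The genes whose course was most like that of BGLU44 were sought by the Pearson correlation of the 8 time means, among the 744 other genes past the F test. Of these, 111 had a correlation above 0.9 and 70 one under -0.9, and all share the same arrays, so the values are a description. The closest was NAI1 (AT2G22770), a bHLH transcription factor gene needed for endoplasmic reticulum bodies, with a Pearson correlation of 0.99 and a Spearman correlation of 0.88. NAI1 rose by 0.61 at 2 h and 0.86 at 6 h (limma adjusted p = 0.0369 and 0.00122). For 2 h, leaving out array 1 of 0 h gave an adjusted p of 0.189, array 2 of 0 h gave 0.0797, and the arrays of 2 h gave 0.117, 0.0726 and 0.144, all short of a call. ARR15 also ranked among the closest 8, with a Pearson correlation of 0.97 and a Spearman correlation of 0.93.

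The other 6 were AT2G03240, AT4G25410, AT5G27930, AT4G29310, AT5G47940 and AT4G35750, with correlations from 0.97 to 0.98. Their rises at 6 h ran from 0.47 for AT5G47940 to 1.30 for AT4G25410 (limma adjusted p = 0.0365 and 7.07e-04). The call of AT5G47940 ended on leaving out array 1 of 0 h (0.31, adjusted p = 0.223) or any array of 6 h (adjusted p up to 0.115). None of the 8 was called for the step from 1 to 2 h, where ARR15 gained most, by 0.87 (limma adjusted p = 0.393). The choice of the 8 depended on the arrays: from 4 to 8 of them stayed among the closest 8 without single arrays, 4 without repeat 3 of 0 to 2 h and 1 without repeat 3 of 0 to 3 h. With the correlation taken over the 24 arrays, 3 of the 8 stayed among the closest 8: AT4G29310, AT4G25410 and ARR15. The 4 genes with the lowest correlations were AT2G41800, AT2G31920, AT1G22810 and AT5G43450, at -0.98 to -0.97. AT1G22810 fell by 1.81 at 2 h and 2.59 at 6 h (limma adjusted p = 9.91e-05 and 9.93e-07).

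**Figure D5:**
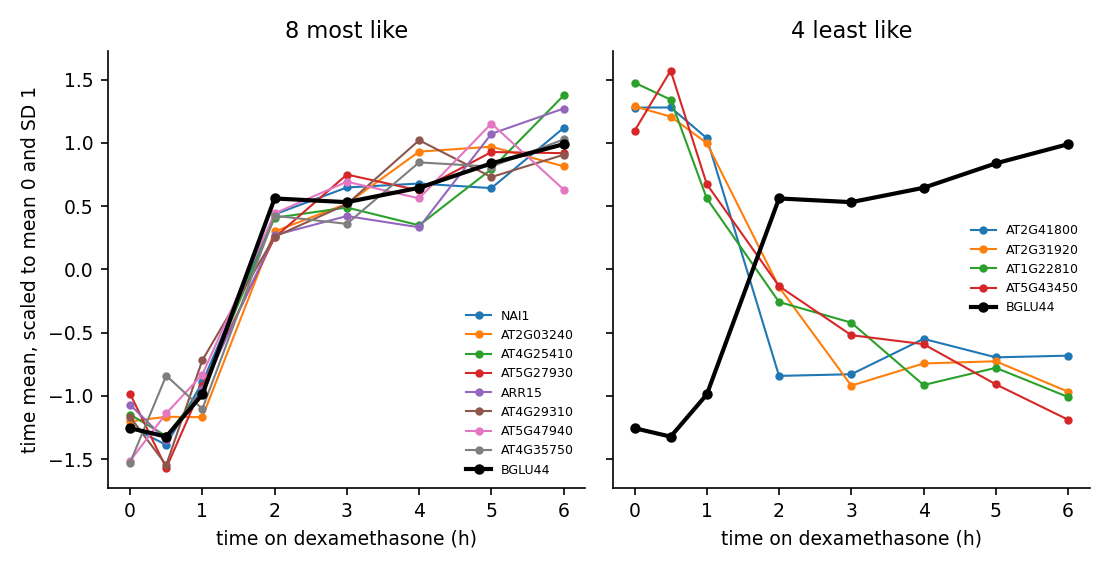
Time means scaled to mean 0 and SD 1 against time (h), for BGLU44 (black) with the 8 genes most like it on the left and the 4 least like it on the right. BGLU44 and the 8 genes are low up to 1 h and high from 2 h on, and the 4 genes run the opposite way.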

How the data were processed

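The deposited values are log2 expression values per probe set, made by the authors with RMA, per the submitters' processing notes; RMA covers background correction, quantile normalization and a summary per probe set. The software version was not given in the sources used here, nor was a genome build. Because quantile normalization makes the arrays' distributions alike, a shift common to most genes could be lost.

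Of 38408 probe sets, the platform annotation gave 16746 a single gene. They were matched to the TAIR10.1 RefSeq table through gene IDs (16601 matched) and averaged per gene, which left 16552 genes. Another 20904 probe sets had no gene name here and 758 had several, and these were left out of the main fit. A gene said to be without a value or not measured may lie among them. BGLU44 had 1 probe set. Groups were the 8 times in the sample titles. A linear model with 8 group means was fitted with limma 3.58.1 in R 4.3.3 (lmFit, eBayes), and adjusted p-values (Benjamini-Hochberg, over all genes) under 0.05 were called. "Over the alternatives" means the settings of the closing section. For single genes other than BGLU44, results from the fits of the compared arrays alone were not recorded and are not among them. The fit was tested on simulated data for 6 h against 0 h over 16552 genes, where log2 changes of 0.5, 1, 2 and 3 were recovered in 39.6%, 84.4%, 99.2% and 100% of cases and 4.49% of calls were false. The simulated noise was independent between genes and arrays, without shifts shared by many genes of an array, such as that seen for repeat 3. The share of false calls in the deposited data may therefore differ from the simulated one. The number of arrays limits the precision.

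Named genes are BGLU44, its measured family, pathway and neighbouring genes, and the 8 most and 4 least like it. Gene, lists and tests were chosen with earlier results of these data known.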

Additional observations from a re-analysis of the deposited data

How the results depend on the processing

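BGLU44 kept its calls at 2, 3, 4, 5 and 6 h, in late against early and in the F test in every fit without 1 array and under all scalings. At 6 h no alternative changed the call. Against a log2 change of at least 1, the call was lost at 2 h (change 2.15, adjusted p = 1), 3 h (2.11, adjusted p = 1), 4 h (2.25, adjusted p = 0.932) and 5 h (2.48, adjusted p = 0.115). In fits of the compared arrays alone, where fewer arrays set the spread, it was lost at 2 h (2.15, adjusted p = 0.0651) and for 2 h against 1 h (1.83, adjusted p = 0.704). That step also lost its call among all probe sets (1.83, adjusted p = 0.0731) and without repeat 3 of 0 to 2 h (1.96, adjusted p = 0.120) or of 0 to 3 h, a setting chosen after seeing the data (1.96, adjusted p = 0.160), and ran from 1.44 to 2.09 without single arrays.

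Uncalled directions turned for 0.5 h without repeat 3 of 0 to 2 h or of 0 to 3 h (0.24 each), for 3 h against 2 h with array weights (0.0387) and without repeat 3 of 0 to 3 h (0.11), and for 4 h against 3 h in the latter (-2.83e-04). Without single arrays these ran from -0.38 to 0.16 and from -0.22 to 0.14, and 4 h against 3 h ran from -2.83e-04 to 0.32.

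Other BGLU genes called at 6 h numbered 3 with an intensity trend and robust variances and without repeat 3 of 0 to 2 h or of 0 to 3 h, 1 with array weights, median centring, the replicate block or no dim genes, and 0 to 3 without single arrays, against 0. In late against early they numbered 5 with robust variances or the replicate block, against 3. The cytokinin, complex and target genes called in late against early numbered 2 after a second quantile normalization and without repeat 3 of 0 to 2 h or of 0 to 3 h. They reached 5 at most in the other settings and ran from 2 to 4 without single arrays, against 4. All genes called ran from 197 to 1221 at 6 h over the settings and from 317 to 1129 without single arrays, against 686. In late against early they ran from 1160 to 2064 and from 838 to 1324, against 1158. Whether the counts of members follow these totals was not tested.

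The repeat numbers do not pair arrays by the labels: same-numbered arrays deviated together with correlations from -0.03 to 0.22, above 0.1 in 14 of 84 pairs. As a hint from the data, not the design, 58 of 84 correlated best with their own number, and all 10 pairs of repeat 3 among 0 to 3 h were above 0.1 (0.11 to 0.22). With the replicate block BGLU44 changed by 2.66 at 6 h (adjusted p = 1.93e-05), none of its calls changed, and genes called at 4 h went from 464 to 728. Without single arrays the genes called for 2 h against 1 h ran from 1 to 4, against 3. In fits of the compared arrays alone they numbered 0, 2, 8, 41, 69, 101 and 197 at 0.5 to 6 h.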

Other observations

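NAI1 had the course most like BGLU44 by the Pearson correlation of the 8 time means, but held place 9 by that over the 24 arrays. It encodes a factor known to be needed for PYK10 (BGLU23), the abundant beta-glucosidase of root endoplasmic reticulum bodies. While NAI1 rose by 0.86 at 6 h (limma adjusted p = 0.00122), PYK10 had a change of 0.22 (adjusted p = 0.218) and its relatives BGLU21 and BGLU22 had changes of -0.28 and -0.18 (adjusted p = 0.0807 and 0.542). In late against early times PYK10 had a difference of 0.14 (limma adjusted p = 0.145), and BGLU21 fell by 0.28.

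AT1G23160 and BGLU44 were the 2 genes called as higher for the step from 1 to 2 h. AT1G23160 gained 1.70 in that hour, and its call was kept in the 34 alternatives recorded for it (adjusted p up to 0.0482). These leave out the fit of the 1 and 2 h arrays alone, in which no gene was called for this step.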
